A study of Drosophila melanogaster with 6 samples.

Results

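The comparison described here sets head transcripts of *Drosophila melanogaster* flies of both altered genotypes against those of control flies. Its members are all 6 arrays of the series, chosen by their treatment label: 2 arrays of over-expression of *cbt* and 2 of RNAi of *cbt*, together 4 altered arrays, against 2 control arrays. Each genotype was sampled once at ZT3 and once at ZT15, where ZT (Zeitgeber time) counts the hours after lights-on in a light-dark cycle, and these arrays are called its pair. Each array holds RNA of 30 pooled heads. The control flies are called cyo in the study's design text. CyO is the usual name of a balancer, a rearranged copy of chromosome 2 that carries the dominant wing marker *Curly* and recessive markers, but the labels do not say whether the control flies carry it or only come from a stock that does. The driver, the transgenes, the genetic background and the age of the flies are not given in the sources used here.

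The product of *cbt* (*cabut*) is a sugar-responsive transcription factor with zinc fingers, and its over-expression and its knockdown are opposite manipulations. A transcript that departs from control in the same direction in both is one that does not follow the labelled direction of the manipulation. Separately kept fly stocks differ at natural variants, and clusters of cytochrome P450 genes, which hold near copies of each other, are known for such variation. In this series fly stock and manipulation cannot be told apart, because the labels name no further line for any genotype.

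*cbt* itself lay on opposite sides of control in the altered genotypes, and against its labels. Its log2 signal at ZT3 and ZT15 was 10.21 and 10.72 in control, 8.98 and 9.90 in the over-expression-labelled pair and 10.99 and 11.05 in the RNAi-labelled pair. Both altered genotypes together differed from control by -0.24 ± 0.65 (SE, 4 arrays against 2; adjusted p = 0.932). Genotypes are therefore called by their labels. *Dcr-2*, the Dicer gene of the RNAi pathway, is often added as a transgene to strengthen RNAi. It read 8.74 and 8.79 in control, 8.52 and 8.65 in the over-expression-labelled pair and 12.96 and 12.87 in the RNAi-labelled pair. A high *Dcr-2* signal was thus seen in the RNAi-labelled pair and on neither over-expression-labelled array.

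The arrays had medians of 7.35 to 7.42. Several measures set arrays apart. The mean of 12 digestive tract markers was 7.97 on the over-expression-labelled ZT3 array against 4.52 to 5.19 in control and 4.55 to 5.02 on the remaining altered arrays. The bacterial control transcript BioB (its 3′ probe set) read 7.93 and 7.76 in the RNAi-labelled pair against 4.68 to 5.54 on the other arrays. The 5′ probe set of 18S ribosomal RNA ranged from 6.32 on the over-expression-labelled ZT3 array to 10.23 on the control ZT15 array. The neuron, glia and fat body lists differed less than the digestive tract list. The mean signal of 13 neuron markers was 9.31 to 10.1 on the altered arrays against 9.92 and 9.97 in control. For 10 glia markers it was 9.25 to 9.61 against 9.49 and 9.62, and for 9 fat body markers 11.49 to 11.96 against 11.78 and 11.7. The mean of 4 male markers at ZT3 was 8.17 (over-expression label) and 7.73 (RNAi label) against 8.85 in control. At ZT15 it was 8.88 and 8.90 against 8.66. On the altered arrays 8 female markers gave 8.84 to 9.90 against 9.45 and 9.13, and 15 hemocyte markers 7.73 to 8.44 against 8.17 and 7.99. For 16 muscle markers it was 9.27 to 9.91 against 9.16 and 9.57, and for 4 photoreceptor markers 9.585 to 10.6 against 9.88 and 10.26. In RNA of whole heads, fewer cells of a type and less RNA per cell cannot be told apart. The part of such differences in the results below was not tested.

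No gene passed the test of 4 altered arrays against 2 control arrays. Of 6488 genes tested, 0 (0%) had an adjusted p under 0.05 by limma, with time as a block and the difference between the altered genotypes counted as spread. At an unadjusted p under 0.05 there were 525 genes (8.09%), 226 higher and 299 lower. The lowest adjusted p was 0.373, shared by 6 genes, *Cyp4p1*, *CG7402*, *CG34054*, *CG10462*, *zfh1* and *Cyp6a20*. When the altered genotypes were given a term each and their mean was set against control, 239 genes (3.68%) passed, 108 higher and 131 lower. That fit does not ask whether the altered genotypes move alike: 52 of its 239 genes were not on one side of control on all 4 arrays, and *Dcr-2* was among them (adjusted p = 0.00356). Whether a genotype's pair came from separate cultures is not stated, so all p-values cover only the spread between these 6 arrays.

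Without a test, 1028 genes (15.8%) lay above the control array of the same time on all 4 altered arrays and 1041 (16.0%) lay below it. Each control array enters 2 of the 4 differences, so its own error moves both of them the same way. Most of these differences were small. At 1.2-fold or more on all 4 arrays there were 90 higher and 151 lower genes. At 1.5-fold or more there were 12 higher (0.185%) and 26 lower genes (0.401%), and at 2-fold or more 5 and 4.

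These 38 genes are described below. They were chosen by their differences from control, so the fit's values for them are a description of the selection and no support for it. On 36 of the 38 the 4 altered arrays lay entirely above or entirely below both control arrays, whatever the time, against 1369 of all genes (21.1%), and the exceptions were *CG31954* and *Cpr49Ag*. The choice of the 38 leaves little room for another outcome, so nothing is read from that count. Just inside the threshold were *CG34195*, with a smallest difference of -0.59, and *CG31954* with 0.59. Just outside were *Syt12* at -0.57 and *CG10516*, also at -0.57. Among the 12 higher genes the median difference was 1.16 and 1.25 in the over-expression-labelled pair at ZT3 and ZT15, and 1.47 and 1.40 in the RNAi-labelled pair. Among the 26 lower genes it was -0.99 and -0.73 on the former and -0.98 and -1.01 on the latter. Of the 38, 24 have a gene name and 14 only a CG number.

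**Figure D1:**
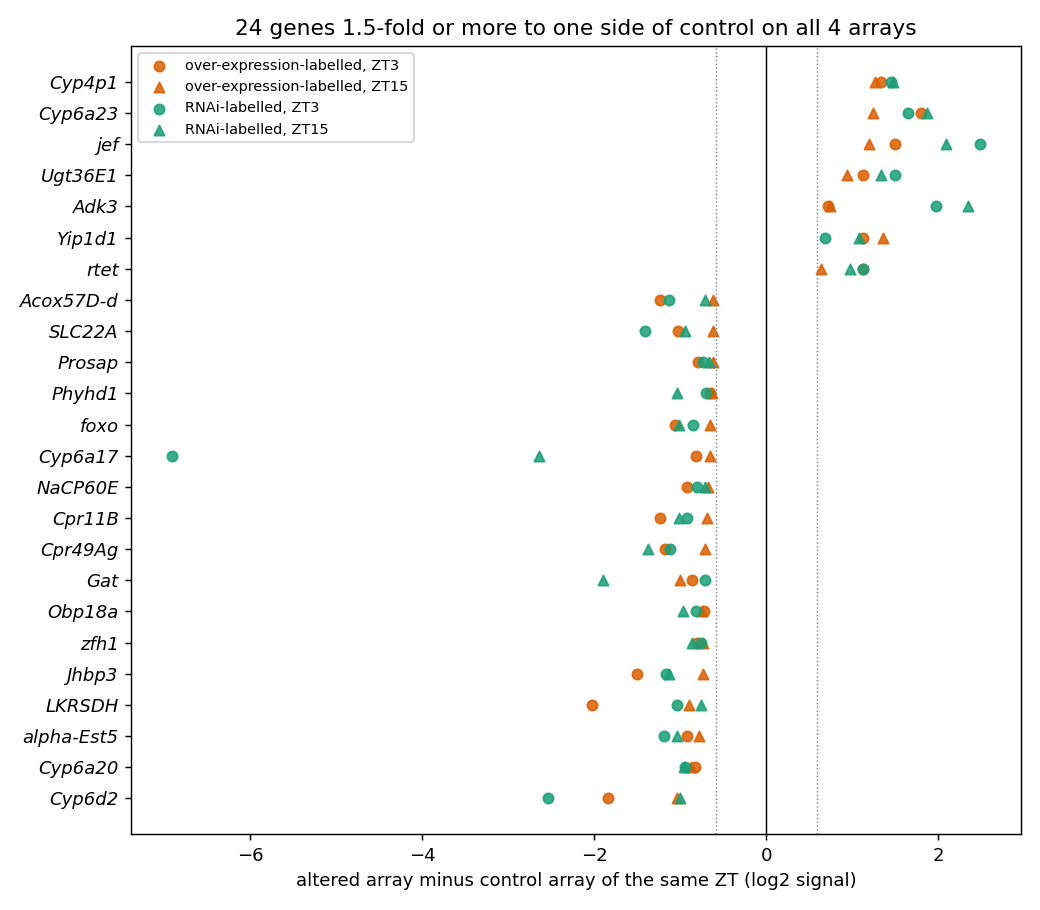
The horizontal axis gives the log2 signal of each altered array minus that of the control array of the same time, for the 24 genes with a gene name that lay 1.5-fold or more (dotted lines) to one side on all 4 arrays; colours mark the genotype label and shapes the time. *Cyp6a20* and *zfh1* have 4 nearly equal differences, while *Cyp6a17* reaches -6.91 on the RNAi-labelled ZT3 array and lies at -0.82 and -0.66 in the over-expression-labelled pair.

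Among the 12 higher genes the largest differences were those of *jef* (1.82) and *CG31954* (1.67). *CG31954* read only 5.09 on the control ZT3 array and 5.68 on the over-expression-labelled ZT3 array. Whether signals under 6 lie above background was not tested, so the size of its difference is uncertain. Of the 12, 3 encode enzymes of detoxification families, *Cyp6a23*, *Cyp4p1* and *Ugt36E1*. The 26 lower genes hold 3 P450 genes. Of 6488 genes tested, 53 are P450 and 15 UDP-glycosyltransferase genes. *Cyp4p1* encodes a cytochrome P450, a class of enzymes that oxidise toxins, hormones and fatty acids. It read 9.45 and 8.79 in control at ZT3 and ZT15, 10.78 and 10.05 in the over-expression-labelled pair and 10.89 and 10.27 in the RNAi-labelled pair. Both altered genotypes lay above control at either time, as the choice of the gene requires. The difference was 1.38 ± 0.12 (SE, 4 arrays against 2; 2.60-fold; adjusted p = 0.373). Set against control one by one, the over-expression-labelled genotype differed by 1.30 (adjusted p = 0.00419) and the RNAi-labelled genotype by 1.46 (adjusted p = 0.00286). These comparisons share the control arrays and use the values by which the gene was chosen, so they lend it no support.

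*Ugt36E1* encodes a UDP-glycosyltransferase, which attaches sugars to small molecules for removal. Its signal was 6.94 and 6.41 in control, 8.06 and 7.35 in the over-expression-labelled pair and 8.43 and 7.74 in the RNAi-labelled pair. The ZT15 reading was the lower of each pair. Together they differed from control by 1.22 ± 0.17 (2.33-fold, adjusted p = 0.557), and the RNAi-labelled arrays lay 0.38 above the over-expression-labelled ones (adjusted p = 0.0286).

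Among the remaining higher genes with a name, *jef* read 7.23 and 7.47 in control, 8.73 and 8.67 in the over-expression-labelled pair and 9.71 and 9.56 in the RNAi-labelled pair. *Adk3*, an adenylate kinase gene, read 6.78 and 6.49, then 7.49 and 7.23, then 8.75 and 8.83, in the same order. Both genes read lowest in control and highest in the RNAi-labelled genotype, and the step between the altered genotypes was 0.94 for *jef* (adjusted p = 0.00488) and 1.43 for *Adk3* (adjusted p = 0.00148). *Yip1d1* lay 1.06 ± 0.18 above control and *rtet* 0.96 ± 0.16 (adjusted p = 0.557 for each), with no call between the altered genotypes. A p that misses the threshold does not show that they are alike. The 5 higher genes with only a CG number included *CG7402*, at 5.33 and 5.04 in control against 6.28 to 6.90 on the altered arrays, and *CG9664*, at 5.95 and 5.68 against 7.09 to 7.83. The control readings of both were under 6, as were those of *rtet*, at 5.40 and 5.49 against 6.13 to 6.52. These genes passed the filter, a mean of 6 over all 6 arrays, only through their altered arrays. Whether their control signals lie above background was not tested, so the sizes of their differences are uncertain.

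**Figure D2:**
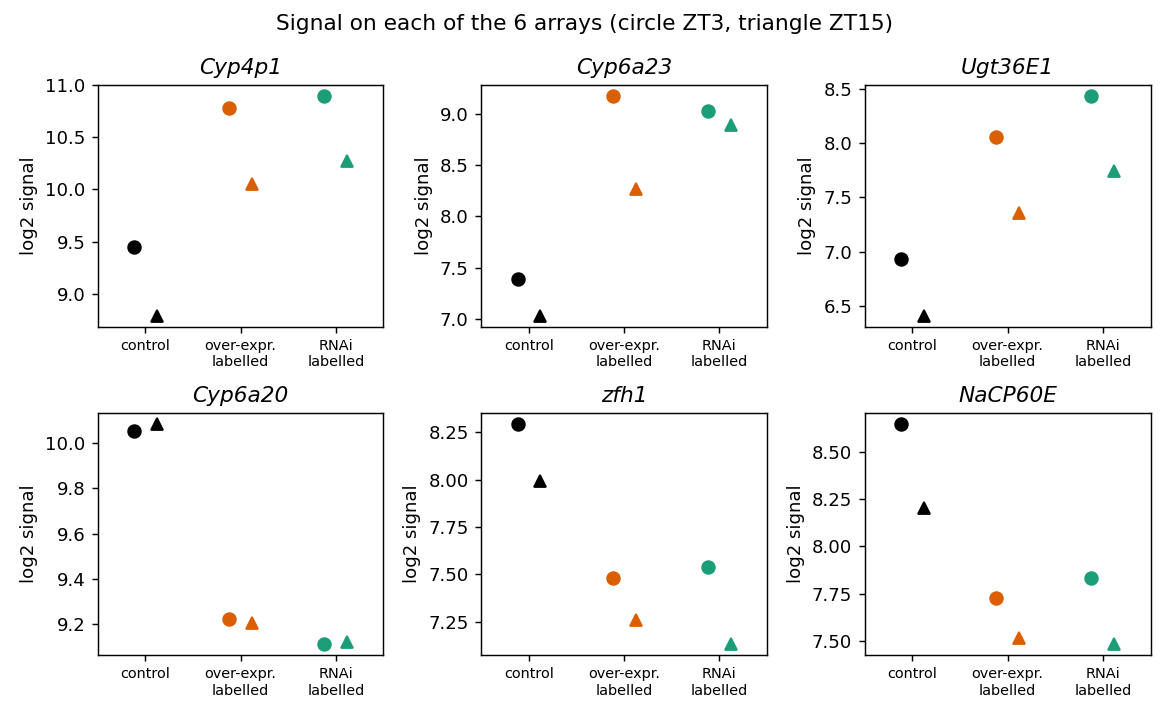
Each panel gives the log2 signal of 1 gene on each of the 6 arrays by genotype label, with circles for ZT3 and triangles for ZT15; the vertical axes do not start at 0 and differ between panels. In the upper row the control arrays lie lowest and in the lower row highest, with *Cyp6a20* at 10.05 and 10.08 in control against 9.11 to 9.22 on the altered arrays.

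Other cytochrome P450 genes lay below control. *Cyp6a20*, known for its link to male aggression, read 10.05 and 10.08 in control, 9.22 and 9.20 in the over-expression-labelled pair and 9.11 and 9.12 in the RNAi-labelled pair. Times and altered genotypes were nearly level. The difference was -0.90 ± 0.10 (1.87-fold lower, adjusted p = 0.373), and -0.86 and -0.95 for the over-expression-labelled and RNAi-labelled genotypes on their own (adjusted p = 0.00841 and 0.00497). *Cyp6a20* was chosen by these same values, so they lend it no support. *Cyp6d2* read 9.23 and 8.77 in control, 7.40 and 7.73 in the over-expression-labelled pair and 6.69 and 7.76 in the RNAi-labelled pair. The gap was wider at ZT3 in both genotypes (-1.84 and -2.54, against -1.04 and -1.01 at ZT15), and the difference was -1.61 ± 0.34 (adjusted p = 0.608). Of 53 P450 genes tested, 11 lay above control on all 4 arrays and 16 below, where all genes gave 15.8% and 16.0%. At 1.5-fold or more there were 2 and 3, where all genes gave 0.185% and 0.401%. The median difference of the family was -0.05 against -0.00078 for all genes. With the arrays centred on ribosomal protein genes the counts of 11 and 16 became 12 and 11.

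Members of this family that lie close together on chromosome arm 2R did not share a direction. Of the 38 genes, *Cyp6a17*, *Cyp6a23* and *Cyp6a20* are the only ones within 5 places of each other in the gene order of the RefSeq annotation (Release 6 plus ISO1 MT): *Cyp6a17* and *Cyp6a23* are next to each other, and *Cyp6a20* is 3 places from *Cyp6a23*. *Cyp6a17*, known for a role in temperature preference, read 9.94 and 9.65 in control, 9.12 and 8.99 in the over-expression-labelled pair, and 3.02 and 6.999 in the RNAi-labelled pair. It thus lay slightly below control in one altered genotype and near the bottom of the scale on 1 array of the other. *Cyp6a23* read 7.39 and 7.03 in control, 9.18 and 8.27 in the over-expression-labelled pair and 9.03 and 8.90 in the RNAi-labelled pair, a difference of 1.64 ± 0.20 (3.11-fold, adjusted p = 0.421). The 2 genes are close copies of each other, and how far their probe sets tell the copies apart was not tested.

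*Cyp6a22*, next to *Cyp6a17*, differed by 0.13 and 0.28 in the over-expression-labelled pair and by -1.38 and -0.51 in the RNAi-labelled pair. *Cyp6a9*, between *Cyp6a23* and *Cyp6a20*, stayed within 0.27 of control on all 4 arrays. *Cyp6a8*, 2 places past *Cyp6a20*, differed by 0.11 and -0.30 in the over-expression-labelled pair and by 2.25 and 2.40 in the RNAi-labelled pair. *Cyp6a21*, next to *Cyp6a20*, lay above control on all 4 arrays, by 0.64 and 0.42 in the over-expression-labelled pair and by 0.08 and 0.16 in the other. *Cyp6a17*, *Cyp6a23* and *Cyp6a20* are on one side by their choice.

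**Figure D3:**
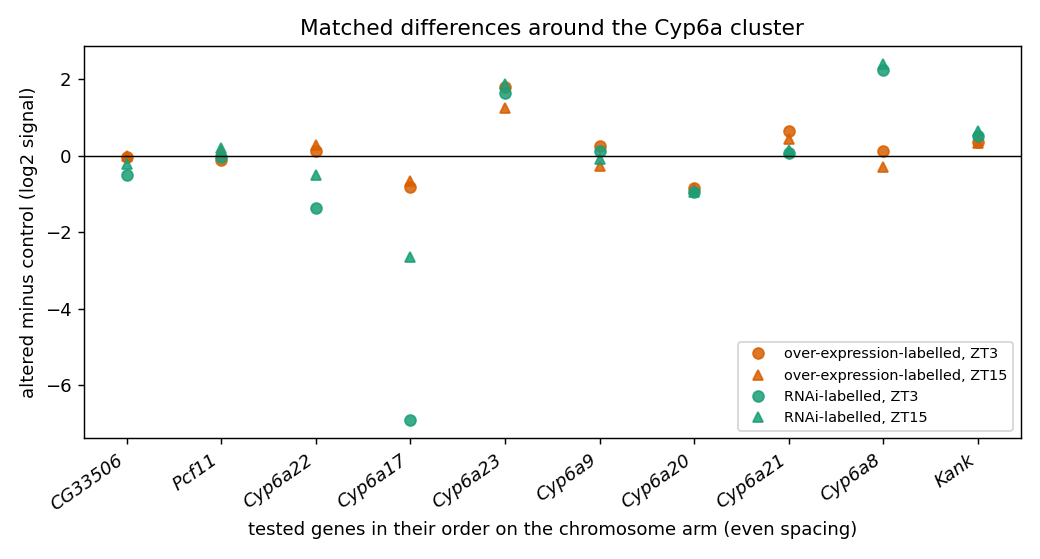
The vertical axis gives the log2 difference of each altered array from the control array of the same time, and the horizontal axis lists the tested genes around the *Cyp6a* cluster in their order on chromosome arm 2R, evenly spaced. *Cyp6a23* lies 1.24 to 1.87 above control and *Cyp6a20* 0.83 to 0.96 below it on all 4 arrays, with *Cyp6a9* between them near 0.

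Chromosome 2 held many of the 38 genes, a property the choice did not use, though the share was computed after the data had been seen. It carries 2520 of the 6473 tested genes with a known chromosome (38.9%), and 23 of the 38 genes (60.5%; exact binomial interval 43.4% to 76.0%, which treats genes as independent, as they need not be). Among the 12 higher genes 10 lie on it, 6 on arm 2L and 4 on arm 2R, and among the 26 lower genes 13, of which 11 are on arm 2R. The share was larger among larger differences, in sets that contain each other: 40.2% of genes on one side at any size, 43.3% at 1.2-fold, 60.5% at 1.5-fold and 77.8%, or 7 of 9, at 2-fold. Genes 1.5-fold or more from control at both times in 1 genotype taken by itself lay on chromosome 2 in 44.3% of 386 cases for the over-expression label and 43.5% of 432 for the RNAi label. The X chromosome held 2 of the 38 against 16.3% of genes tested, and no difference between these shares was tested.

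**Figure D4:**
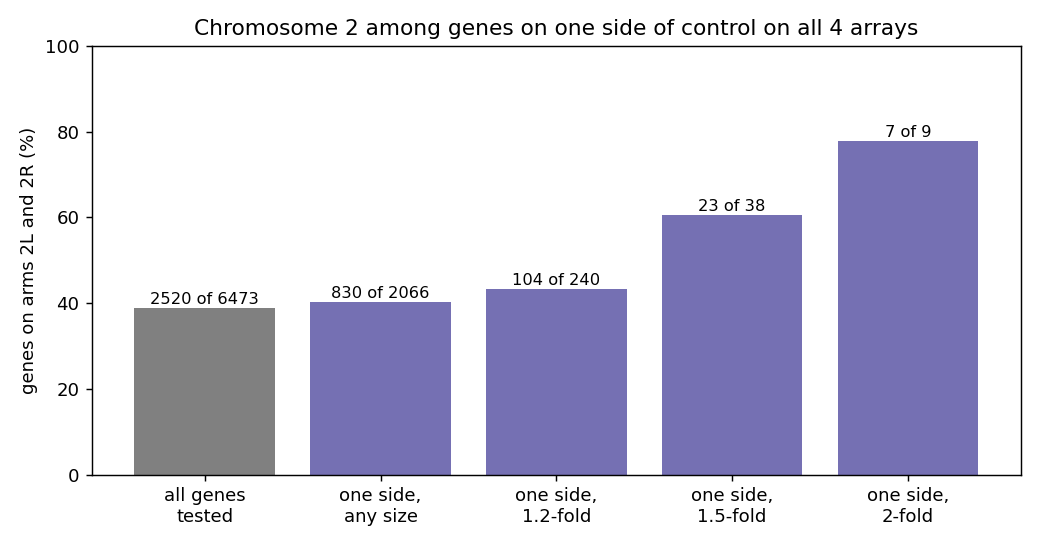
Bars give the percentage of genes that lie on chromosome arms 2L and 2R, for all genes tested and for genes on one side of control on all 4 arrays at rising minimum differences, with the counts above each bar. The share goes from 38.9% over all genes to 60.5% at 1.5-fold and 77.8% at 2-fold, where 9 genes remain.

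The marker genes of the CyO balancer gave no common direction. *Duox*, the oxidase gene whose mutation gives the *Curly* wing, read 6.12 and 6.38 in control, 6.56 and 6.50 in the over-expression-labelled pair and 5.60 and 5.67 in the RNAi-labelled pair, so the altered genotypes lay on opposite sides (difference together -0.17 ± 0.37, adjusted p = 0.916). *pr* (*purple*), of eye pigment synthesis, read 9.60 and 9.93 in control, 10.03 and 10.29 in the over-expression-labelled pair and 9.57 and 9.44 in the RNAi-labelled pair (0.07 ± 0.29, adjusted p = 0.962). The markers *cn* and *dp*, and the transgene marker *w*, were not analysed here. Of 15 eye pigment and related marker genes, 2 lay above control on all 4 arrays and 7 below, where all genes gave 15.8% and 16.0%. Their median difference was -0.15. The pteridine gene *se* (*sepia*) read 10.3 and 10.2 in control against 9.18 to 9.90 on the altered arrays, and *ry* (*rosy*, xanthine dehydrogenase) 9.04 and 8.63 against 8.30 to 8.55. Centred on ribosomal protein genes, 1 of the 15 lay above and 5 below.

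Odorant-binding proteins carry odours and other small molecules in the fluid around sensory neurons. Of 19 tested, 2 were above control on all 4 arrays and 8 below (1 of them by 1.5-fold or more), where all genes gave 15.8% and 16.0%, with a median difference of -0.38 against -0.00078 for all genes. *Obp18a* read 11.29 and 11.59 in control, 10.57 and 10.84 in the over-expression-labelled pair and 10.47 and 10.62 in the RNAi-labelled pair (-0.82 ± 0.11, adjusted p = 0.557). *Obp56e* read 12.7 and 13.2 in control against 11.9 to 12.6 on the altered arrays. *Obp28a* went the other way, from 5.86 and 6.07 to between 6.33 and 8.46. *Obp56h*, counted as below, differed by -2.39 in the over-expression-labelled genotype and by -0.11 in the other. After quantile normalization or ribosomal centring the counts were 1 above and 7 below, and the median was -0.35 in each.

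*LKRSDH*, of lysine breakdown, read 8.38 and 8.23 in control, 6.35 and 7.33 in the over-expression-labelled pair and 7.34 and 7.47 in the RNAi-labelled pair (-1.18 ± 0.33, adjusted p = 0.612). Its lowest value was on the over-expression-labelled ZT3 array, the one with the high digestive tract markers. *Acox57D-d*, a peroxisomal acyl-CoA oxidase gene, read 7.50 and 7.48, then 6.26 and 6.86, then 6.36 and 6.76, with the same mean difference of -0.92 in each altered genotype (-0.92 ± 0.15 together, adjusted p = 0.557). *Acox57D-p*, its neighbour by name, lay 0.11 above control. *Phyhd1*, of the phytanoyl-CoA dioxygenase family, differed by -0.76 ± 0.15 and *alpha-Est5*, a carboxylesterase gene, by -0.98 ± 0.14 (adjusted p = 0.598 and 0.557). In the list of amino acid breakdown, which does not hold *LKRSDH*, 2 of 12 genes lay above control on all 4 arrays and 2 below, with 0 at 1.5-fold. In the lipid list 4 of 21 genes lay above control on all 4 arrays and 7 below, with a median of -0.16. Over all genes the shares were 15.8% above and 16.0% below.

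Regulators of the insulin and sugar response included *foxo*, the transcription factor that insulin signalling holds in check. It read 8.20 and 7.89 in control, 7.14 and 7.23 in the over-expression-labelled pair and 7.34 and 6.87 in the RNAi-labelled pair, lower by nearly the same amount in both (-0.85 and -0.94; together -0.90 ± 0.14, adjusted p = 0.557). The insulin receptor gene *InR* was also below control on all 4 arrays, at 8.92 and 8.65 in control against 8.01 to 8.54. Of 15 genes in the *cabut* and sugar list, 6 lay below control on all 4 arrays and 2 above, where all genes gave 16.0% and 15.8%. The counts of 6 and 2 were equal in the 3 scalings tried, with medians of -0.20 as deposited, -0.19 after quantile normalization and -0.17 with ribosomal centring. *Pepck2* was 1 of the 2 above, by 0.41 in the over-expression-labelled genotype and 5.14 in the RNAi-labelled one. It read 5.44 and 5.18 in control and 5.67 and 5.77 in the over-expression-labelled pair, all under the filter of 6. It passed that filter only through the RNAi-labelled pair, at 11.04 and 9.85. Whether the low readings lie above background was not tested, so its side in the over-expression-labelled genotype is not settled.

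*zfh1*, a zinc finger homeodomain transcription factor gene, read 8.29 and 7.99 in control, 7.48 and 7.26 in the over-expression-labelled pair and 7.54 and 7.13 in the RNAi-labelled pair (-0.79 ± 0.09, adjusted p = 0.373). *NaCP60E*, a voltage-gated cation channel gene, read 8.64 and 8.20, then 7.73 and 7.52, then 7.83 and 7.49 (-0.78 ± 0.09, adjusted p = 0.397). In both genes the altered genotypes were close to each other, while their common side was fixed by the choice of the genes. *Gat*, the glial transporter that clears the transmitter GABA, differed by -1.12 ± 0.31 (adjusted p = 0.612), most at -1.90 on the RNAi-labelled ZT15 array. *Jhbp3*, named for juvenile hormone binding, read 11.18 and 11.33 in control against 9.67 to 10.59 on the altered arrays (-1.13 ± 0.20, adjusted p = 0.557). *Gat* was the only one of 10 glia markers at 1.5-fold or more, and 0 of 13 neuron markers and 0 of 10 hormone response genes were, against 0.586% of all genes. In the hormone list 4 of 10 genes lay below control on all 4 arrays and 2 above, where all genes gave 16.0% and 15.8%. Among these 4 was the ecdysone receptor gene *EcR*, at 7.15 and 7.34 in control against 6.65 to 6.86.

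*Prosap*, which encodes the postsynaptic scaffold Shank, has no settled direction. Its brightest probe set read 10.49 and 10.61 in control against 9.69 to 9.99 on the altered arrays (-0.71 ± 0.10, adjusted p = 0.557). Its other probe sets lay above control on all 4 arrays, by 1.28 to 2.25 in one case and 0.56 to 0.87 in the other. It was the only one of the 38 genes with more than 1 probe set on the table. For the remaining 37 genes no other probe set could be compared.

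The cuticle protein genes *Cpr49Ag* and *Cpr11B* lay below control on all 4 arrays, with log2 differences of -1.10 ± 0.20 and -0.97 ± 0.16 (adjusted p = 0.557 for each). *SLC22A*, an organic ion transporter gene, read 7.54 and 7.46 in control against 6.13 to 6.84. Of 19 cuticle protein genes 3 lay above control on all 4 arrays and 4 below, where all genes gave 15.8% and 16.0%. The median of the family was 0.11. Among the 9 lower genes with only a CG number, *CG34054* read 8.31 at both times in control against 6.94 to 7.31, and *CG11425* 11.65 and 11.16 against 9.63 to 10.44.

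The counts of the other lists stand against 15.8% of all genes above control on all 4 arrays and 16.0% below. Of 36 respiratory chain genes, 12 lay above control on all 4 arrays and 3 below, but the median difference was 0.01 and the largest of those above was 0.32, for *ND-75*. Of 24 glutathione transferase genes 2 were above and 7 below, with *GstE3* 0.51 ± 0.10 above and *GstD3* at -0.49 ± 0.11. Of 15 UDP-glycosyltransferase genes 3 were above and 0 below. In the clock list *per*, the core clock repressor gene, read 5.24 and 7.66 in control, 5.68 and 8.35 in the over-expression-labelled pair and 5.74 and 8.12 in the RNAi-labelled pair, above control by 0.52 ± 0.11, and *cyc* lay 0.31 ± 0.10 above. All ZT3 readings of *per* were under the filter of 6. Whether they lie above background was not tested, so its side at ZT3 is not settled. Below control on all 4 arrays were the clock repressor gene *cwo*, at -0.57 ± 0.28, and the neuropeptide gene *Pdf*, at -0.51 ± 0.37, so that of 11 genes in this list 3 lay above and 2 below. *Pdf* differed by -0.91 in the over-expression-labelled genotype and by only -0.11 in the RNAi-labelled one. The ZT15 signal of *per* exceeded that at ZT3 in all 3 genotypes. Of 19 phototransduction genes 0 lay above and 2 below, of 14 antimicrobial peptide and recognition genes 1 above and 0 below, and of 9 Turandot and stress genes 1 and 2. Of 22 neuropeptide genes 1 lay above and 3 below, of 19 genes of sugar transport and glycolysis 3 and 4, and of 6 genes of the small RNA machinery 1 and 1. Of 34 cytosolic ribosomal protein genes 8 lay above and 6 below, and of 69 mitochondrial ones 12 and 14. Among cell type markers, 0 of 13 neuron markers lay above and 3 below, 1 and 3 of 10 for glia, 2 and 4 of 9 for fat body, 3 and 1 of 13 for hemocytes, and 3 and 1 of 15 for muscle.

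**Figure D5:**
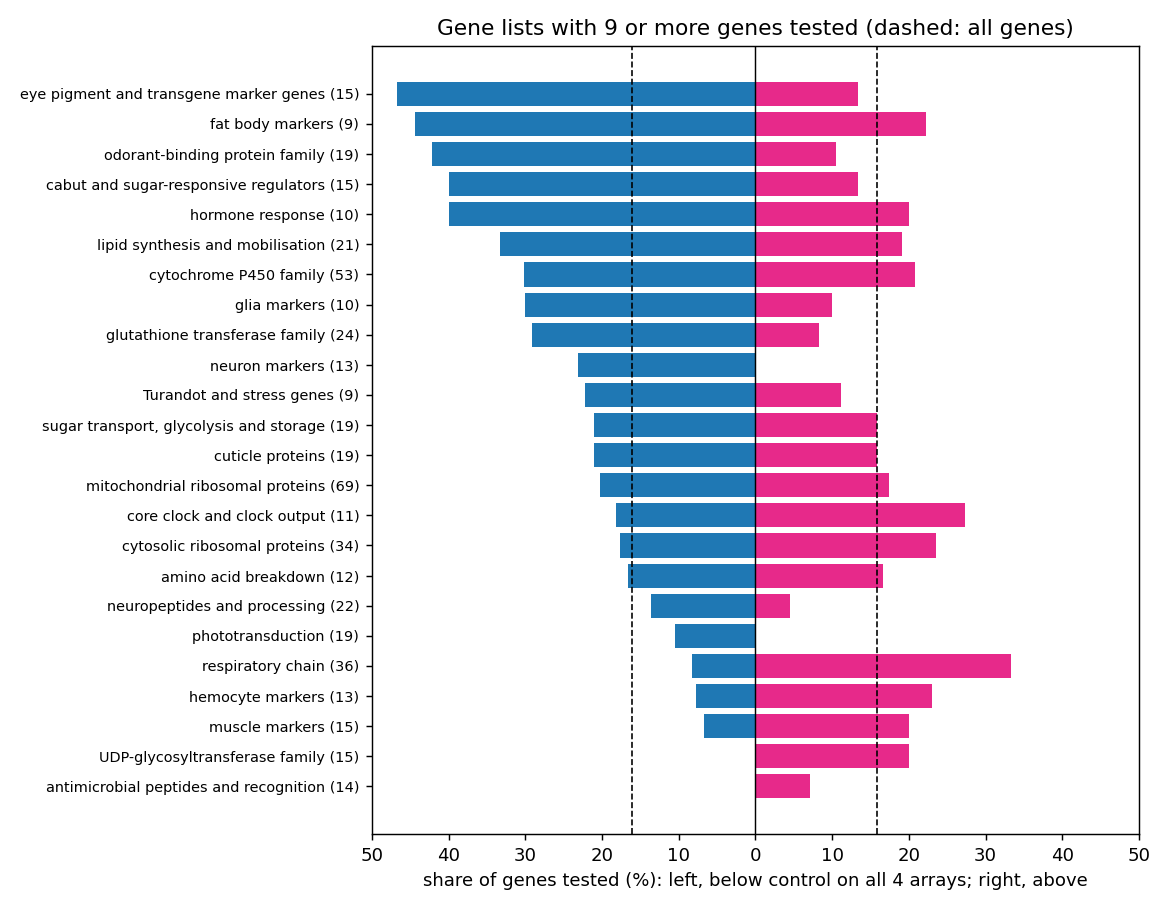
For each gene list with 9 or more genes tested (number in brackets), bars give the percentage of its genes that lay below control (left) or above control (right) on all 4 altered arrays; dashed lines mark all genes, at 16.0% and 15.8%. Eye pigment and related marker genes, with 7 of 15 below, fat body markers, with 4 of 9, and odorant-binding proteins, with 8 of 19, reach far to the left. Respiratory chain genes, with 12 of 36 above, reach to the right.

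Beneath the signal filter, a further 16 genes lay 1.5-fold or more from control on all 4 arrays, 7 higher and 9 lower. *Alp6*, an alkaline phosphatase gene, was among the lower ones, at 6.80 and 6.64 in control, 4.08 and 4.34 in the over-expression-labelled pair and 4.43 and 4.40 in the RNAi-labelled pair. Whether signals this low lie above background was not tested, so no size is given for these genes. *tum*, a GTPase-activating protein gene of cell division, read 4.63 and 4.50 in control against 5.61 to 7.01, and *ItgaPS5*, an integrin subunit gene, 3.86 and 4.03 against 4.99 to 5.60. Of these 16 genes 11 lie on chromosome 2, which holds 37.0% of the 2017 placed genes beneath the filter. Among 692 probe sets with no listed gene, tested apart, 0 passed by limma (73 at an unadjusted p under 0.05) and 237 lay on one side of control on all 4 arrays. Of the genes tested, 8.09% had an unadjusted p under 0.05 by limma and 31.9% lay on one side.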

How the data were processed

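Biotin-labelled RNA was hybridised to Affymetrix Drosophila 2.0 arrays, 1 per sample, per the labels' protocols. The authors deposited 1 log2 signal per probe set and array; the log scale was inferred from the range of values. The submitters' processing notes name Expression Console, with no version or normalization method given in the sources used here. The table held 10956 probe sets, each at 4.00 or more on at least 1 array. Of these 9286 had 1 gene, 276 several, 1331 none listed and 63 were controls. Symbols and chromosomes came from RefSeq by gene ID (9260 matched). The brightest probe set stood for each of 8516 genes, and the 6488 with a mean of 6 or more over the 6 arrays were tested. The number of arrays, 6, limits the precision.

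Differences were fitted across all genes with limma 3.58.1 in R 4.3.3 (lmFit, eBayes with an intensity trend, two-sided, Benjamini-Hochberg, threshold 0.05), with altered or not and ZT as terms. The fit left 3 residual degrees of freedom per gene, to which moderation added 1.89. The median SE was 0.151. A second fit had a term for each genotype and gave the values of single genotypes. Matched differences are altered minus control at the same ZT. The fit was tested on 20 simulated tables of 6488 genes, 200 of them shifted alike in both altered genotypes. It recovered 53.2% of shifts of 0.5 on the log2 scale, 84.6% at 1 and 97.0% at 2, with 4.79% false among its calls. The simulated arrays held no difference between the altered genotypes, which the real ones do.

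The comparison and gene lists were chosen with earlier results of these data known. The rule for named genes took genes that passed, of which there were none, so beyond *cbt*, *Dcr-2* and the CyO markers genes are named for lying 1.5-fold or more to one side on all 4 arrays, or as list members, after their values were seen. Alternatives were the fit by genotype, no ZT term, no trend, other filters, other probe set rules, quantile normalization, ribosomal centring, other folds and each array left out. Plots were made in Python 3.11.15 with matplotlib 3.10.9.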

Additional observations from a re-analysis of the deposited data

Results flagged for a closer look

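The altered genotypes differed from each other, by limma after adjustment, for 8 of the 38 genes that lay 1.5-fold or more to one side of control on all 4 arrays, with over-expression-labelled minus RNAi-labelled differences of 4.04 for *Cyp6a17*, 0.39 for *CG40298*, -1.42 for *CG31954*, 0.55 for *CG13284*, -1.43 for *Adk3*, -0.38 for *Ugt36E1*, 0.52 for *CG9664* and -0.94 for *jef*. These 8 genes therefore share a side and not a size. The share of all genes tested with such a difference was not counted here, so 8 of 38 is read as neither many nor few. The altered genotypes differed in the same test for *cbt* (-1.58), *Dcr-2* (-4.33), *Duox* (0.89) and *pr* (0.65), which were on no common side. The matched difference of *CG11741* on the over-expression-labelled ZT3 array, -2.76, stood apart from the other 3, which were -1.09, -0.96 and -0.95. Chance alone marks about 1 in 20 such groups of 4.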

How the results depend on the processing

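The count of genes that passed was 0 by limma under every alternative except the fit by genotype, where it was 239. That fit takes the difference between the altered genotypes out of the spread. The 525 genes with an unadjusted p below 0.05 became 165 when the ZT3 control array was left out and 91 for the ZT15 control array, 307 and 255 for the ZT15 arrays labelled over-expression and RNAi, and 611 and 637 for their ZT3 arrays, with 0 passing each time. The count of genes on one side of control, 38 at 1.5-fold, was 241 at 1.2-fold and 9 at 2-fold, and 54 to 119 with 1 array left out, highest without the control ZT3 array, 94 without the control ZT15 array, 61 without the ZT3 array labelled RNAi and 58 without that labelled over-expression, since fewer differences then have to share a side. At any size it was 2354 to 4209. The share on chromosome 2, like its alternatives, was chosen after seeing the data. It was 60.5% at 1.5-fold, 43.3% at 1.2-fold and 77.8% at 2-fold, and stayed between 44.9% and 63.3% in all other settings. With 1 array left out the difference of *cbt* was -0.67 to 0.19, of *Duox* -0.39 to 0.02909 and of *pr* -0.10 to 0.27. With the mean of its probe sets *Prosap* became 0.59. The other 37 of the 38 genes kept their direction in all settings tried. With 1 array left out or no ZT term this was fixed by the choice of the genes, whose matched differences all share a side. The mean of probe sets could not change it either, since these 37 genes had no other probe set. Nothing is read from those settings. The direction also held after quantile normalization and ribosomal centring. Centring shifted the arrays by only -0.0655 to 0.0625, too little to change the side of genes chosen at 1.5-fold or more. Quantile normalization started from array medians of 7.35 to 7.42 and had little room to do so. Nothing is read from these 2 settings either.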

Other observations

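Some genes lay to one side of control through a probe set other than the brightest. For *Galphaq*, the G protein gene of phototransduction, probe sets reading 8.31 and 8.36, and 8.998 and 9.16, on the control arrays read 7.06 to 7.60 and 7.36 to 8.27 on the altered arrays. The brightest probe set differed by -0.01, the mean of opposite differences. It lay at -0.30 in the over-expression-labelled genotype and at 0.27 in the RNAi-labelled one. For *mbl*, a splicing factor gene, such a probe set read 8.53 and 7.62 in control against 6.74 to 7.28, and the brightest differed by 0.01. For *eIF4B*, a translation initiation factor gene, it differed by -1.11 against -0.42, and for the iron carrier gene *Tsf1* by 1.85 against 0.68. That probe set of *Tsf1* read 4.62 and 5.22 in control and 6.04 and 5.90 in the over-expression-labelled pair. It reached a mean of 6 only through the RNAi-labelled pair, at 7.71 and 7.41. Whether its low readings lie above background was not tested, so the size of this difference is uncertain. The exons these probe sets cover were not analysed here.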
